A study of Mus musculus with 6 samples.

Results

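The genes described here are named for proteins of the cytosolic ribosome. They are the genes whose array row carries exactly 1 gene symbol, and whose symbol is Rpl or Rps followed by a number, with an optional a, x or l ending, or is Rplp0, Rplp1, Rplp2, Rpsa or Fau. Pseudogene names and the Rps6k kinases were left out. Of several rows for a gene, the row with the highest mean signal over the 6 arrays was kept. The rule gave 60 genes of 19938, by name 37 of the large and 23 of the small ribosomal subunit. A further 16 ribosomal protein symbols occur only on rows of several symbols, so the 60 do not cover either subunit in full. The 60 genes were set between 3 p65 knockout (KO) and 3 p65 wild-type (WT) mice. p65, encoded by Rela, is the NF-κB subunit that carries a transactivation domain, and the series title places its deletion in the blood-forming compartment. The sort took bone marrow cells with c-kit and Sca-1 on their surface and without Flk2 or lineage markers, which is where the blood-forming stem cells are found. Each mouse gave 1 array of amplified total RNA. Strain, age, sex, the deleting agent and the number of cells sorted are not given in the sources used here, and both groups share the same sort.

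The cytosolic ribosome translates all messenger RNAs outside the mitochondria. The small subunit reads the message and the large subunit joins the amino acids. The genes of the ribosomal proteins are transcribed at very high and matched rates in dividing cells, because the subunits are built from near equal numbers of each protein. Their messages begin with a tract of pyrimidines (the 5′ TOP motif), through which the kinase mTOR and the binding protein LARP1 set how much of each message is translated. Blood-forming stem cells translate at a low rate, and loss of a single copy of some of these genes causes Diamond-Blackfan anaemia, a failure of red cell production. Messages were measured here, not translation.

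The start sites were read for this motif. RefSeq promoter sequence of mouse build GRCm38.p6 was matched by symbol for 48 of the 60 genes. A C followed by C or T alone, at least 7 bases in all, on the gene's strand and within 10 bases before to 40 after a listed start, was present in 31 of the 48 (64.6%) and in 23.9% of all 27025 genes of that table. Some of these runs begin well after the start, as in Rps7 (22 bases) and Rpl36a (27 bases). The share is therefore not that of messages that begin with a run. The lines that follow give 30 bases around the start of some of these genes, 10 before it and 20 from it on, with the pyrimidine run in capitals. Rps4l, the gene with the highest KO over WT value, has no entry in that table and is not shown. Fau and Rpl27a are shown for long runs, of 16 and 20 bases, and Rps6 and Rps10 for shorter ones. Rpl34 and Rps27l are among the genes with the highest KO over WT values below, and Rpl12 and Rps3 have no such run in the window.
Fau: gcccccaCTTCTTCCTCTTTCTTgactcca
Rpl27a: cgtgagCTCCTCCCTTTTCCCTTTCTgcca
Rps6: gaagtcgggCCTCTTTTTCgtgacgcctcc
Rps10: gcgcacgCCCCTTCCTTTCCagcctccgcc
Rpl34: CTTTTCCTCTTCCggggacggtgctcagag
Rps27l: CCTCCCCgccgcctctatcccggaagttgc
Rpl12: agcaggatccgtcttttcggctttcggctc
Rps3: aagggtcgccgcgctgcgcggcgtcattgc
These lie at chr19:6057937-6057966 (plus strand), chr7:109519185-109519214 (plus), chr4:86857348-86857377 (minus), chr17:27635225-27635254 (minus), chr3:130730318-130730347 (minus), chr9:66946076-66946105 (plus), chr2:32961702-32961731 (plus) and chr7:99483690-99483719 (minus), in that order, each spanning the annotated start of the gene's transcript. RefSeq lists a second start for Rpl34 and for Rps27l, and neither of those holds a run. The run shown for Rps27l ends before the annotated start, so by this annotation it lies outside the message. The run shown for Rpl34 begins 10 bases before the annotated start, at the edge of the window, which may cut it. Most of its 13 bases lie before that start too.

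Other letters were counted over the whole promoter entries, from 250 bases before to 50 after a start. CCGGAAG, a core of ETS-family sites, was found on either strand in 18 of the 48 genes (37.5%) and in 9.93% of all genes. TATAA was found on either strand in 29.2% of the 48 and in 28.0% of all genes. AAGATGGC, a core of the YY1 site, was found on either strand in 3 of the 48 (6.25%) and in 3.19% of all genes, and CTCTTTCC, a stretch of pyrimidines, on the gene's strand in 5 (10.4%) and in 1.76%, where it can overlap the run described above. A start at C followed by 4 pyrimidines was found in 11 of the 48 (22.9%) and in 3.01% of all genes. The 31 genes with a run had a median log2 fold change, KO minus WT, of 0.08 (range -0.20 to 0.67), and the 17 without one had 0.05 (range -0.04 to 0.43). A match describes the letters of an annotated start, not a site in use, and these 2 medians were not compared by a test.

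The signals are log2 values, so a difference of 1 is a doubling. Rela itself read 7.52, 7.89 and 7.92 in the WT arrays and 7.33, 7.48 and 7.35 in the KO arrays. The groups did not overlap, but the difference of -0.39 (SE 0.16) had an adjusted p of 0.209, or 0.04 without WT replicate 1 (-0.51) (limma with Benjamini-Hochberg adjustment over all genes, as for every adjusted p here), and which exons the row covers relative to the deleted part is not given. WT replicate 1 differed from the remaining 5 arrays. The correlations it had with them over all genes were 0.924 to 0.943, the limma array weight it received was 0.116 against 0.935 to 2.2, and the values were drawn together, with an SD of 2.03 against 2.22 to 2.29. Over all genes 163 (0.818%) passed an adjusted p of 0.05, 137 of them higher in KO. Without WT replicate 1 it was 929 genes (4.66%), and with the replicate number as a block 372. Values without WT replicate 1 are given beside the results that it moved most.

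None of the 60 ribosomal protein genes passed the test. By limma, 4 of them (6.67%) had an unadjusted p under 0.05, all higher in KO, where 13.8% of all genes had such a p and a higher KO mean. The median log2 fold change of the 60 was 0.06, with the middle 50% between 0.01 and 0.12 and a range of -0.20 to 0.78. The median of all 19938 genes was -0.04. Of the 60, 46 had a positive and 14 a negative value, and 55 lay within 0.3 of zero. The number of positive values depended on the normalization, with 14 of the 60 after cyclic loess and 59 with arrays centred on their medians. On the deposited values the standard errors ran from 0.12 to 0.23. The upper 95% limit of the log2 fold change lay below 1 for 57 of the genes and below 0.5 for 51, so a doubling was outside the interval of all but Rps4l, Rpl34 and Rpl39l. In RNA from a whole sorted population, a change in the kinds of cells present and a change in RNA per cell cannot be told apart.

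**Figure D1:**
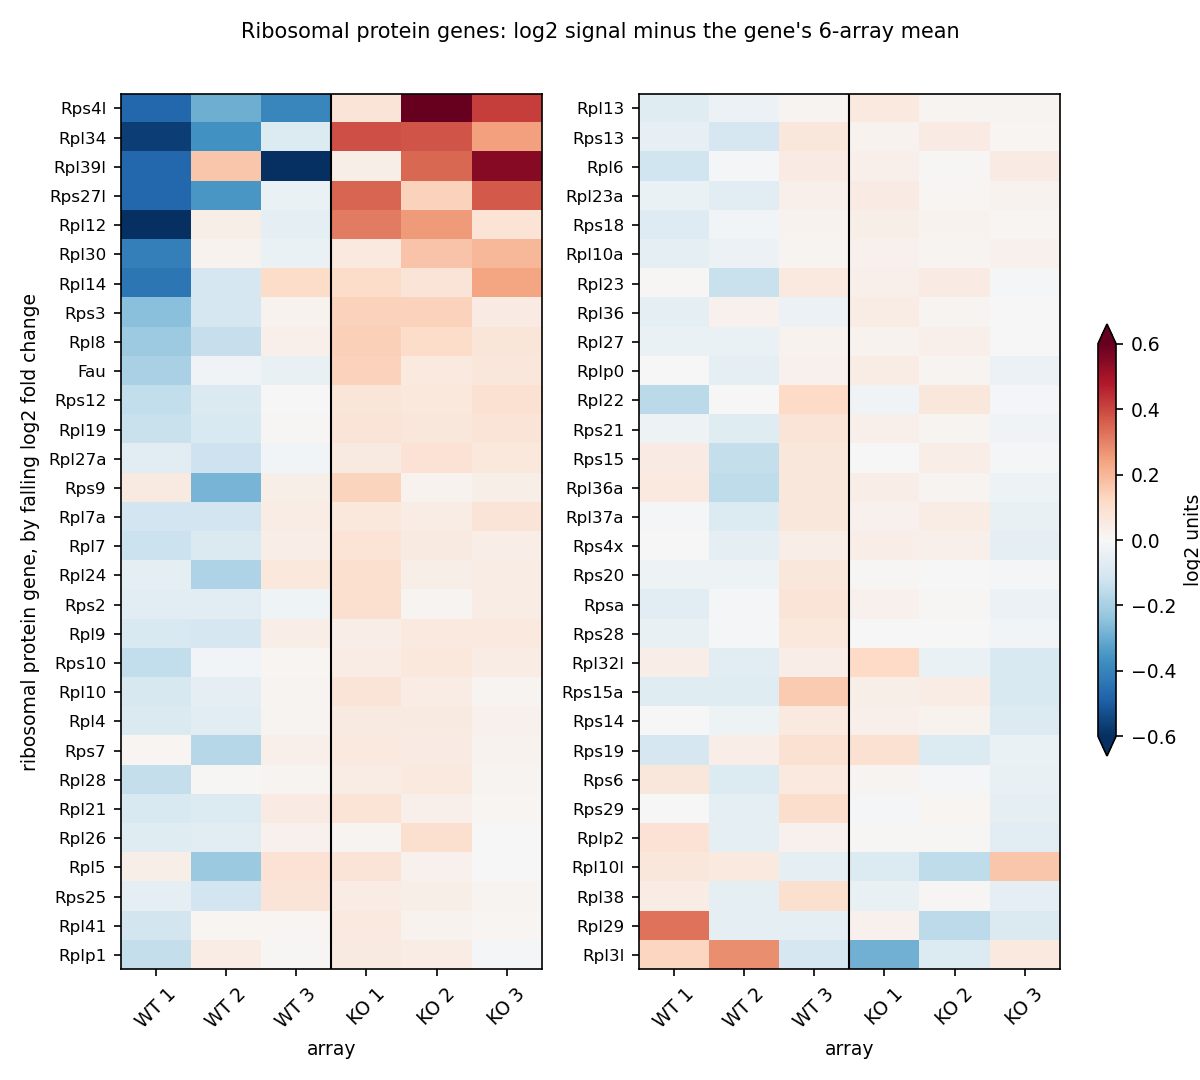
Signal of the 60 ribosomal protein genes in each of the 6 arrays as the log2 difference from the gene's own 6-array mean, ordered by KO minus WT from 0.78 (Rps4l) to -0.20 (Rpl3l). Colour is concentrated in the first rows and in the WT 1 and WT 2 columns, and most genes stay close to their mean in all arrays.

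The median signal of the 60 genes was 12.01, 11.97 and 12.07 in the WT arrays and 12.09, 12.07 and 12.03 in the KO arrays. WT replicate 3 was at the level of KO replicate 2, so the groups overlapped. Within the small spread that there was, 30 genes had their lowest value in WT replicate 1 and 22 in WT replicate 2, while WT replicate 3 was the highest array for 19 genes and KO replicate 1 for 21. Over all genes, 39.0% were lowest in WT replicate 1 and 9.24% in WT replicate 2. All KO arrays were above all WT arrays for 18 of the 60 genes, and for none were they all below. Over all genes the shares were 19.2% above and 15.4% below. Of these 18 genes, 16 had their lowest value in WT replicate 1 and 2 in WT replicate 2. Without WT replicate 1 the median of the 60 was 0.05, 47 were positive, none passed the test and 3 had an unadjusted p under 0.05.

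The 2 subunits had medians close to each other. The 37 large subunit genes had a median log2 fold change of 0.06, with 31 positive and 11 with all KO arrays above all WT arrays. The 23 small subunit genes had a median of 0.05, with 15 positive and 7 above. Summed on the linear scale, the large subunit genes gave 121777 to 130291 in the WT arrays and 129325 to 132381 in the KO arrays, and the small subunit genes 91315 to 98988 and 96615 to 99390. The ranges of the 2 groups overlapped for both subunits.

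The highest log2 fold change belonged to Rps4l, named as a relative of the small subunit protein S4 and classed by the RefSeq gene table as a transcribed pseudogene. Its kept row read 6.98, 7.16 and 7.06 in WT and 7.53, 8.12 and 7.87 in KO. Every KO array was above every WT array, by 0.78 on average (SE 0.17, 95% interval 0.37 to 1.18, 1.71-fold), with an adjusted p of 0.0831. The gene has a second row, which read 6.09, 7.07 and 6.84 in WT and 7.83, 8.34 and 8.43 in KO, a log2 fold change of 1.53 (SE 0.27) with an adjusted p of 0.0521. Both rows showed the same order of the groups and differed by 0.76 in the size of the difference; without WT replicate 1 they gave 0.73 and 1.25. Neither passed 0.05 in the fit of all 6 arrays, and Rps4l passed in 3 of 17 alternative settings (adjusted p 0.0241 to 0.348 over them). Its close relative Rps4x, the X-linked gene that encodes the S4 protein of the ribosome, read 12.01, 11.96 and 12.05 in WT and 12.05, 12.04 and 11.96 in KO, a log2 fold change of 0.01 (SE 0.13). The groups overlapped for Rps4x, and its 95% interval was -0.28 to 0.30. Near-identical copies may share probes, and how the rows of these genes divide that signal is not given.

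Rpl34, a large subunit protein, read 9.08, 9.28 and 9.56 in WT and 10.03, 10.02 and 9.89 in KO. The groups did not overlap, with a log2 fold change of 0.67 (SE 0.16, 1.59-fold) and an adjusted p of 0.0913. The WT arrays spread more than the KO arrays, with an SD of 0.24 against 0.08. Rpl34 passed the test in 1 of 17 alternatives, the one that weights arrays and so gives WT replicate 1 little part, with a log2 fold change of 0.54. Over the 17 alternatives the value lay between 0.39 and 0.82 and the adjusted p between 0.0285 and 0.334.

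Rps27l, a relative of Rps27 that is known as a p53 target, read 10.27, 10.39 and 10.70 in WT and 11.09, 10.88 and 11.11 in KO. Again all KO arrays were higher, by 0.58 (SE 0.16, 1.49-fold), with an adjusted p of 0.122 that stayed above 0.05 in all 17 alternatives (0.0645 to 0.411). Rpl39l, a relative of Rpl39 known from the testis, read 3.81, 4.45 and 3.66 in WT and 4.32, 4.63 and 4.83 in KO. Here the groups overlapped, the difference was 0.62 (SE 0.23, adjusted p 0.19), and the signal was at the level of genes not used in these cells. As a measure of that level, 95% of 1015 olfactory receptor genes had a mean signal of 5.67 or less, and 4 of the ribosomal protein genes (Rpl39l, Rpl3l, Rpl10l and Rpl32l) lay at or below it.

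**Figure D2:**
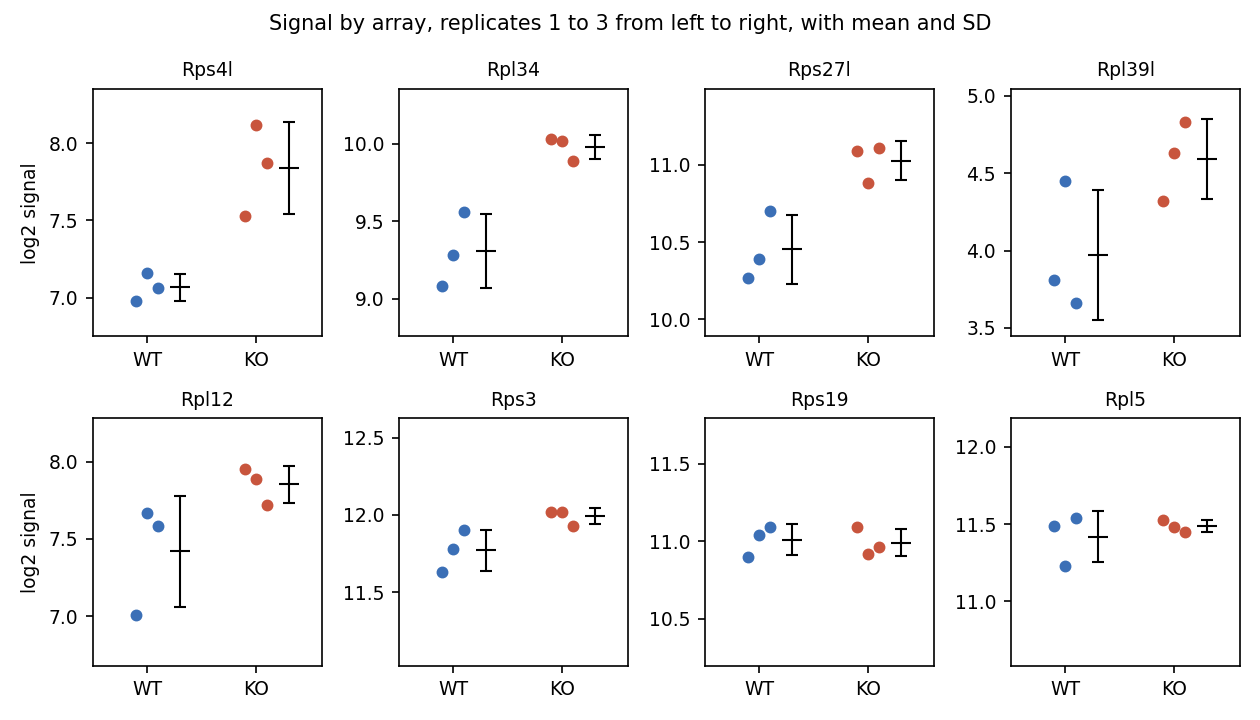
Log2 signal in each array for 8 ribosomal protein genes, WT in blue and KO in red, with group mean and SD to the right of the points and a vertical span of 1.6 log2 units in every panel. Rps4l, Rpl34 and Rps27l separate the groups by 0.58 to 0.78, Rpl39l overlaps, WT replicate 1 lies alone in Rpl12, and Rps19 and Rpl5 show no separation.

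Without WT replicate 1 the log2 fold change was 0.55 for Rpl34, 0.48 for Rps27l and 0.54 for Rpl39l. The next genes in order owed a larger part of their difference to that array. Rpl12, which binds at the base of the ribosomal stalk, read 7.01, 7.67 and 7.58 in WT and 7.95, 7.89 and 7.72 in KO. Without overlap, the difference was 0.43 (SE 0.20, adjusted p 0.244), and it was 0.23 without WT replicate 1, which lay below all other arrays. Rpl30, which sits where the subunits meet, read 7.34, 7.77 and 7.71 in WT and 7.81, 7.92 and 7.95 in KO, a difference of 0.29 (SE 0.16, adjusted p 0.30), and of 0.16 without WT replicate 1, again the lowest array. Rpl14, a large subunit protein, read 9.94, 10.27 and 10.48 in WT and 10.48, 10.45 and 10.61 in KO, so that WT replicate 3 overlapped the KO arrays, with a difference of 0.28 (SE 0.17, adjusted p 0.329) that was 0.14 without WT replicate 1.

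Rps3 lies at the entry of the messenger RNA channel and is also known as a partner of p65 in some NF-κB complexes. Its row read 11.63, 11.78 and 11.90 in WT and 12.02, 12.02 and 11.93 in KO. The KO arrays were all higher, but WT replicate 3 (11.90) came close to the lowest KO array (11.93), and the log2 fold change of 0.22 (SE 0.14, 95% interval -0.09 to 0.53) had an adjusted p of 0.346. Over 17 alternatives it ran from 0.05 to 0.36 and was never called.

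At the other end, no gene was lower in all KO arrays. Rpl29, a large subunit protein, read 11.62, 11.24 and 11.24 in WT and 11.32, 11.14 and 11.21 in KO, a difference of -0.14 (SE 0.16, adjusted p 0.561), with WT replicate 1 alone above the others and a difference of -0.02 without it. Rpl3l, the muscle relative of Rpl3, had -0.20 (SE 0.16) at a signal near 4.25, and Rpl10l, the testis relative of Rpl10, -0.04 at 4.67, both at the level of unused genes. The remaining genes at this end were bright or moderately bright and flat. Rpl38, which is known for its part in translating Hox messages, had -0.06, the stalk protein gene Rplp2 -0.04, Rps29 -0.03, Rps19 -0.02 and Rps6, the substrate of the S6 kinases, -0.02.

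The ribosomal stalk, a set of acidic proteins on the large subunit that recruits elongation factors, had no called gene among 4. Rplp0, its base, read 12.06, 12.01 and 12.09 in WT and 12.11, 12.08 and 12.03 in KO, a log2 fold change of 0.02 (SE 0.13). Rplp1 had 0.06 and Rplp2 -0.04, both with overlapping groups, and only Rpl12, described above, had all KO arrays higher. A second, dimmer row of Rplp0 gave 0.24, and 0.14 without WT replicate 1. For Rplp0 and Rplp1 the sign turned under other normalizations.

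Of 16 genes mutated in Diamond-Blackfan anaemia or, for Rps14, lost in the 5q- syndrome, 9 were measured on rows of a single symbol, and none was called. Their median log2 fold change was 0.03, with a range of -0.03 to 0.10. Rps19, the gene most often mutated in that anaemia, read 10.90, 11.04 and 11.09 in WT and 11.09, 10.92 and 10.96 in KO, a log2 fold change of -0.02 (SE 0.13, 95% interval -0.33 to 0.29). The groups lay within each other. Rpl5, which binds the 5S RNA, read 11.49, 11.23 and 11.54 in WT and 11.53, 11.48 and 11.45 in KO, with a difference of 0.07 (SE 0.14, interval -0.25 to 0.39), and its low array was WT replicate 2. Rps14 read 12.08, 12.05 and 12.14 in WT and 12.11, 12.10 and 12.00 in KO (-0.02, SE 0.13). The others, all small changes, were Rps10 at 0.10, Rps7 at 0.08, Rpl26 at 0.07, Rpl27 at 0.03, Rps28 at -0.01 and Rps29 at -0.03. Rps10 was the 1 gene of the 9 with all KO arrays above all WT arrays.

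Rpl5, with Rpl11, holds back the p53 inhibitor MDM2 when ribosome assembly fails. Of 6 genes of this link 3 were measured (Rpl5, Rpl23 and Mdm2), and none was called. Mdm2 read 7.03, 7.56 and 7.60 in WT and 7.61, 7.68 and 7.63 in KO, a log2 fold change of 0.24 (SE 0.18, adjusted p 0.41), and of 0.06 without WT replicate 1. Its difference therefore rested on that array. Rpl23 read 12.15, 12.01 and 12.20 in WT and 12.17, 12.19 and 12.13 in KO, with a log2 fold change of 0.04.

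Of 16 listed paralog genes 11 were measured, and their median log2 fold change was 0.09 (0.06 without WT replicate 1) with 4 at an unadjusted p under 0.05, all higher. These were Rps4l, Rps27l and Rpl39l, given above, and Rpl7l1, which the rule for the 60 genes does not take in. Rpl7l1, a relative of Rpl7, read 7.37, 7.80 and 8.24 in WT and 8.46, 8.32 and 8.27 in KO, a log2 fold change of 0.54 (SE 0.22, adjusted p 0.207), with no overlap but a wide WT spread, and of 0.33 (adjusted p 0.233) without WT replicate 1, its lowest array. The measured partners of these pairs that serve the common ribosome were flat. Rpl10 had 0.09, Rpl7 0.12, Rpl36a 0.02 and Rps4x 0.01. Rpl22, whose protein is a known brake on its paralog Rpl22l1, read 10.01, 10.17 and 10.29 in WT and 10.15, 10.24 and 10.16 in KO. The groups overlapped with a difference of 0.02 (SE 0.14), and the sign turned with the normalization (-0.23 after quantile normalization).

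Fau encodes ribosomal protein S30 fused to a ubiquitin-like protein, and it was the 1 of 3 such fusion genes measured. It read 11.76, 11.93 and 11.91 in WT and 12.09, 12.01 and 12.02 in KO, a log2 fold change of 0.18 (SE 0.13, adjusted p 0.409) without overlap, or 0.12 without WT replicate 1. Its second row read 11.28, 11.52 and 11.51 in WT and 11.89, 11.79 and 11.76 in KO, with 0.38 (SE 0.14, adjusted p 0.179). The groups were apart on both rows. Rpsa, the laminin receptor protein of the small subunit, had -0.01 on its kept row (SE 0.13) and 0.17 on the dimmest of its 5 rows, which gave 0.04 without WT replicate 1. Rpl8, at the peptidyl transferase centre, read 11.46, 11.54 and 11.71 in WT and 11.82, 11.79 and 11.75 in KO, with 0.22 (SE 0.13, adjusted p 0.347).

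Ribosomal protein genes have many processed copies in the genome, and the array carries several rows under 1 symbol for many of them. Whether a row was designed on the gene or on such a copy is not given. The 60 genes had 217 rows, with 40 genes on more than 1 row and up to 14 rows for Rps12. Of the 40, 33 had rows that differed by less than 0.1 in log2 fold change, and 5 by more than 0.2, which were Rps4l, Rpl23, Rpl27a, Fau and Rplp0. The dimmer row of Rpl23 read 10.18, 10.56 and 10.77 in WT and 10.84, 10.81 and 10.85 in KO, a log2 fold change of 0.33 where the kept row had 0.04, and without WT replicate 1 the 2 rows gave 0.17 and 0.06. In 28 of 39 genes whose rows differed in mean signal, the row of lowest signal had the larger log2 fold change, by a median of 0.02 over the 39. Of the 217 rows, 187 were positive. A further 233 rows carry a ribosomal protein symbol together with others, and were not named. Their median log2 fold change was 0.10 (middle 50% from 0.07 to 0.15), and 227 of them lay within 0.3 of zero.

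**Figure D3:**
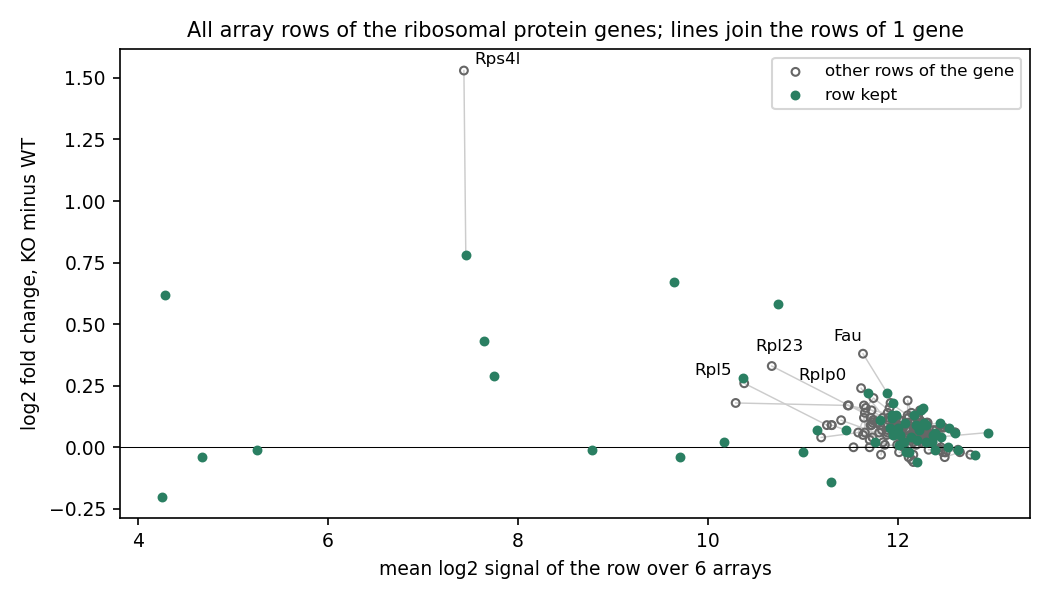
Log2 fold change, KO minus WT, of the 217 array rows of the 60 genes against the row's mean log2 signal over 6 arrays, with the kept rows filled and the rows of 1 gene joined. Rows above a signal of 11 crowd just above zero, and the dimmer rows of Rps4l (1.53), Rpl23 (0.33) and Rpl5 (0.26) lie above the rows kept for them.

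Signal level itself went with the size and sign of the difference over all genes, so the 60 were set beside genes of the same 1-unit step of mean log2 signal. Of the 60, 47 had a mean signal of 11 or above. Their median log2 fold change was 0.06 (range -0.14 to 0.22), and all KO arrays were above all WT arrays for 13. The 128 other genes this bright had a median of 0.21, and the KO arrays were above for 69 of them (53.9%). By limma, 0 of the 47 and 30 of the 128 (23.4%) had an unadjusted p under 0.05. Between 11 and 12, 15 ribosomal protein genes had a median of 0.08 and 117 other genes 0.22. Between 12 and 13 the order of the medians was the other way, with 0.05 for 32 ribosomal protein genes and -0.01 for 11 other genes. The median range over the 6 arrays was 0.23 for the ribosomal protein genes against 0.45 for the others in the step from 11 to 12, and 0.15 against 0.37 in the step from 12 to 13. Without WT replicate 1 the bright medians were 0.05 and 0.12. No test set the ribosomal protein genes against the others, and the part of the array's upper signal limit in these narrow ranges was not tested.

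Between 7 and 11, 9 ribosomal protein genes had a median log2 fold change of 0.29 and 6808 other genes 0.30. Without WT replicate 1 these medians were 0.16 and 0.13. Over all 6 arrays, every KO array was above every WT array for 5 of the 9 and for 2932 of the 6808. By limma over all 6 arrays, 3 of the 9 (33.3%) and 32.9% of the 6808 had an unadjusted p under 0.05, in either direction. Rps4l, Rpl34, Rps27l, Rpl12, Rpl30 and Rpl14 are among the 9, so their positive values lie in a signal range where 5862 of the 6808 other genes were positive too. The remaining 3, Rpl22, Rps15a and Rplp2, had 0.02, -0.01 and -0.04. Below 7, the 4 genes at the level of unused genes had a median of -0.03, and all genes of that range -0.17. The olfactory receptor genes moved with the arrays in the same range, since 95% of them lay at or below 6.88 in WT replicate 1 and at or below 5.41 to 5.73 in the other arrays.

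**Figure D4:**
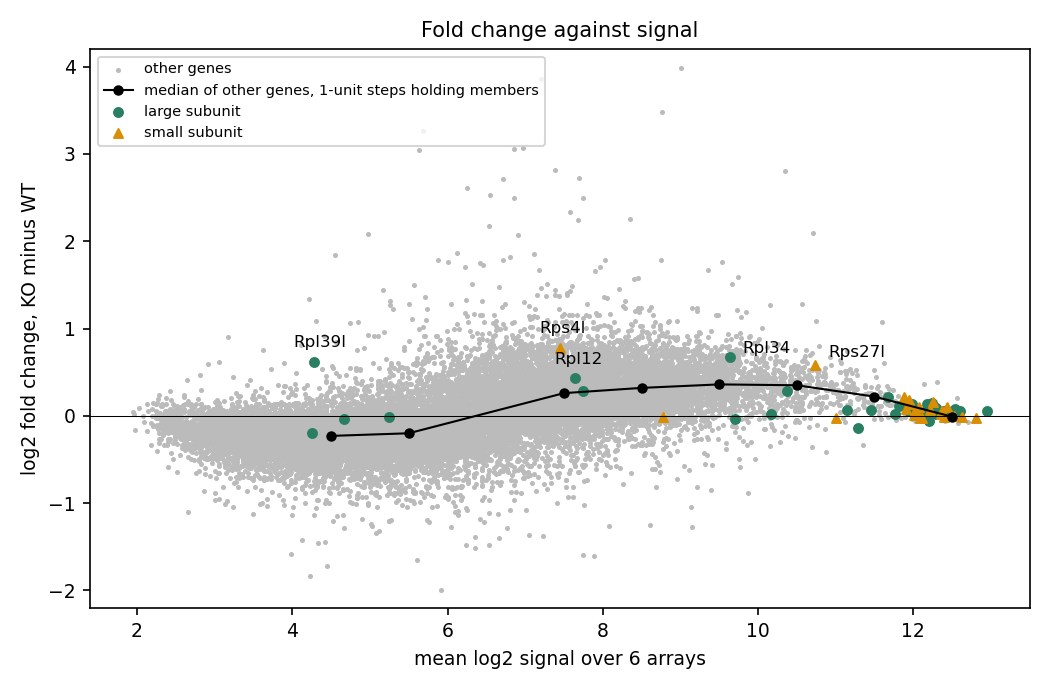
Log2 fold change, KO minus WT, against mean log2 signal over 6 arrays for all genes (grey), large subunit genes (green circles) and small subunit genes (orange triangles), with black points at the median of the other genes in each 1-unit step. The step medians of other genes rise from -0.23 at a signal of 4 to 5 to 0.36 at 9 to 10 and return to -0.01 above 12, where 32 of the 60 genes lie.

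Other parts of the translation machinery were read from lists of genes. The mitochondrial ribosome, which has its own set of nuclear-encoded proteins, had 77 measured genes, all 77 positive, with a median log2 fold change of 0.61 (0.43 without WT replicate 1). Of these, 1 passed the test, where 0.818% of all genes did, and 63 had an unadjusted p under 0.05 with a higher KO mean, where 13.8% of all genes did. In the signal range from 7 to 11, where most of these genes lie, 32.9% of the other genes had an unadjusted p under 0.05 in either direction. These shares are the background for the lists that follow too. Mrpl51, a protein of its large subunit, rose from 9.28, 9.57 and 9.78 in WT to 10.62, 10.47 and 10.56 in KO (1.01, SE 0.16, adjusted p 0.0431). Without WT replicate 1, 22 of the 77 were called, where 4.66% of all genes were, and 586 of the 6808 other genes in that signal range. The mitochondrial genes had mean signals of 6.50 to 10.58, below those of most cytosolic ones, and the 2 lists were not compared by a test.

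Of 21 listed factors whose messages also begin with the 5′ TOP motif 16 were measured, with none called, 1 with an unadjusted p under 0.05 and a median log2 fold change of 0.17 (0.11 without WT replicate 1). Eif3l, a subunit of initiation factor 3, had 0.46 (SE 0.17, adjusted p 0.183), and 0.30 without WT replicate 1. Npm1, a nucleolar chaperone of ribosome assembly, had 0.31 (SE 0.14, adjusted p 0.239), without overlap of the groups. Of 33 listed initiation and release factors 28 were measured, all positive, none called and 21 with an unadjusted p under 0.05, with a median of 0.48 (0.34 without WT replicate 1, when 4 were called). Eif2s2, the β subunit of the factor that brings the initiator transfer RNA, read 9.17, 9.42 and 9.46 in WT and 10.12, 9.97 and 10.07 in KO (0.71, SE 0.14, adjusted p 0.0675). Eif3b, a core subunit of initiation factor 3, had 0.74 (SE 0.17, adjusted p 0.087), and the groups did not overlap for either gene. Both were among those called without WT replicate 1, Eif2s2 at 0.62 (adjusted p 0.0276) and Eif3b at 0.57 (adjusted p 0.0288).

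Of 22 listed regulators of ribosomal protein messages and genes 19 were measured, with none called, 6 with an unadjusted p under 0.05 and a median of 0.31 (0.15 without WT replicate 1, when 1 was called). Rheb, the GTPase that activates mTOR, read 8.13, 8.63 and 8.82 in WT and 9.30, 9.19 and 9.28 in KO (0.73, SE 0.19, adjusted p 0.108). Rheb was the gene called without WT replicate 1 (0.53, adjusted p 0.0422). Mycn, a transcription factor that drives ribosome production, read 7.74, 7.94 and 8.02 in WT and 7.13, 7.54 and 7.41 in KO, the 1 gene of this list with a lower KO mean (-0.54, SE 0.16, adjusted p 0.135). All 24 listed ribosome assembly factors were measured, with none called, 23 positive, 14 with an unadjusted p under 0.05 and a median of 0.47 (0.27 without WT replicate 1, when 3 were called). Gtpbp4, a GTPase of large subunit assembly, had 0.56 (SE 0.13, adjusted p 0.0903), and Ltv1, a factor of small subunit assembly, 0.68 (SE 0.17, adjusted p 0.0991). Both were among those called without WT replicate 1, Gtpbp4 at 0.49 (adjusted p 0.0391) and Ltv1 at 0.52 (adjusted p 0.0417).

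**Figure D5:**
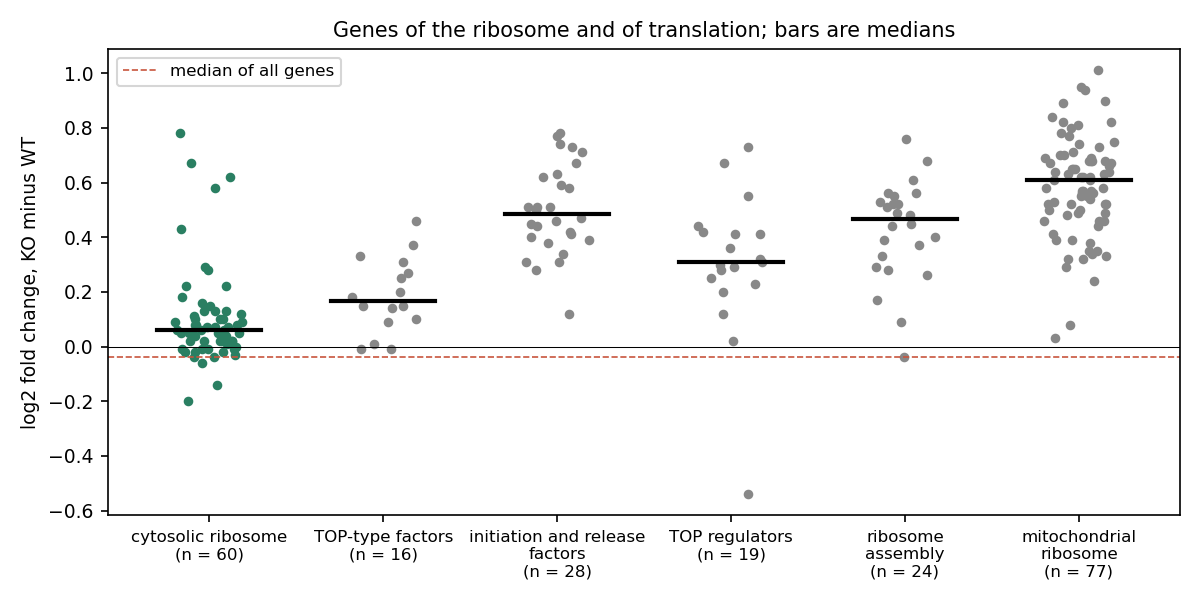
Log2 fold change, KO minus WT, of each measured gene in the cytosolic ribosome (green) and 5 other lists (grey), with black bars at the list medians and a dashed line at the median of all genes (-0.04). The cytosolic genes lie close to zero (median 0.06), and the medians of the other lists run from 0.17 to 0.61 over genes of mostly lower signal.

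Markers of the labelled cell type were read in both groups, and the mix of markers differed between them. Of 14 stem cell genes 13 were measured, at mean signals of 5.82 to 10.78, all above the olfactory level of 5.67. Fgd5, the dimmest, read 5.50, 5.37 and 5.52 in KO. The median log2 fold change of the 13 was -0.69, with a summed linear signal of 5927 to 8316 in WT and 5653 to 6681 in KO. Of the 13, 2 had a higher KO mean, Gata2 (0.32) and Cd34 (0.04). Hlf, a stem cell transcription factor, fell by 1.27 (SE 0.22, adjusted p 0.0485). It was the 1 stem cell gene called, and without WT replicate 1 it was 9, all lower in KO. Of 12 genes of myeloid precursors all 12 had a higher KO mean, and 11 were called. Their median was 2.40, with summed signals of 3762 to 4782 in WT and 15532 to 18434 in KO. Elane, which encodes neutrophil elastase, rose by 3.98 (SE 0.21, adjusted p 0.00027). Of 6 mast cell and basophil genes all 6 had a higher KO mean, and 3 were called. Their median was 1.70, with sums of 765 to 1021 against 1817 to 2314, and 4 were called without WT replicate 1. The 9 T and NK cell genes had a median of -0.35; Nkg7 rose by 1.09 (SE 0.19, adjusted p 0.0483), the other 8 had negative values, and 2 were called without WT replicate 1 (Nkg7 and Cd3d, at -0.55). Of the 9, 7 lay at or below the olfactory level, as did 7 of 14 genes of mature myeloid cells and 5 of 8 of stroma and endothelium. No gene was called among those 14 (median -0.04), those 8 (-0.17), 7 erythroid (0.61), 6 megakaryocyte (0.00) or 7 B cell genes (0.18). Without WT replicate 1, Cd68 of the mature myeloid list (1.05), Tfrc of the erythroid list (0.99) and Ppbp of the megakaryocyte list (-2.57) were called. The part of this shift towards myeloid precursor messages in the values of the ribosomal protein genes was not tested.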

How the data were processed

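Each of the 6 arrays held amplified, labelled RNA of sorted bone marrow cells from 1 mouse, 3 of each genotype. The deposited values are log2 signals; RMA, Affymetrix Expression Console and Partek are named without versions in the submitters' processing notes. The design text names another exon array and program, so the exact array and summary level are unsettled here. Array medians ran from 5.72 to 5.98 and no further scaling was applied.

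Of 35557 rows, 21789 carry 1 gene symbol in the platform annotation, 1621 several and 12147 none; 21698 of the first were found in the RefSeq gene table of GRCm38.p6, which changed no symbol. For each of 19938 genes the row of highest mean was kept. limma 3.58.1 in R 4.3.3 (lmFit, eBayes, group term, two-sided, 4 residual degrees of freedom) was fitted to all genes, with Benjamini-Hochberg adjustment and a threshold of 0.05. In 5 simulated sets of 19938 genes it recovered 50.4% of genes changed by 1 and 89.6% of those changed by 2 on the log2 scale. It made a mean of 5.8 false calls. These sets had independent normal noise with the same SD in both groups for a gene. They held no array that differs from the rest as WT replicate 1 does, so the rates may not hold for the real arrays. With 3 arrays a group, precision is limited by their number. The p-values rest on the spread between these arrays, in which differences between mice and differences in array quality cannot be told apart.

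Named genes are the 8 highest and 8 lowest of the 60, the stalk, ubiquitin fusion, Diamond-Blackfan and paralog genes, Rps3, Rpsa, Rpl22, genes whose call changed in an alternative, up to 4 called genes or else the 2 of smallest p in each other list, and Rela. Chosen after their values were seen were Rpl8, Rps15a, Rpl23, Rpl27a, Rps12, Rpl32l and Rps3a1. The same holds for the marker genes Hlf, Fgd5, Gata2, Cd34, Elane, Nkg7, Cd3d, Cd68, Tfrc and Ppbp. The group of genes, the lists and the markers were chosen with earlier results of these data known.

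Same-numbered WT and KO arrays deviated from their group means together (r = 0.368, 0.119 and 0.162 over genes), though KO 3 with WT 2 (0.195) and KO 2 with WT 3 (0.183) were as high. As each same-numbered pair was above 0.1, the replicate number was used as a block in an alternative. The other alternatives were quantile, cyclic loess and median normalization, a filter on dim genes, intensity trend, robust variance, array weights, averaged rows and leaving out each array. The dimmest row, and the block without pair 1, were added after seeing the data.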

Additional observations from a re-analysis of the deposited data

How the results depend on the processing

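No ribosomal protein gene was called in 14 of the 17 alternative fits. Rps4l was called without dim genes (1 call), with array weights (2 calls, the other being Rpl34) and with the replicate block without pair 1 (1 call), and the replicate block over all pairs changed no call of a named gene. A wider naming rule, which adds Rpl7l1 and Rps3a1, kept 0 calls and a median of 0.06. The median log2 fold change of the ribosomal protein genes moved from 0.06 to -0.09 with cyclic loess and to 0.21 with arrays centred on their medians, which shifts every gene by 0.15, and lay between 0.02 and 0.09 in the other fits.

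Genes called over all genes numbered 372 with the replicate block, 104 with quantile normalization, 219 with cyclic loess (149 higher), 192 with centred arrays (186 higher), 525 without dim genes, 1599 with array weights, 266 with the block without pair 1, and 21 to 929 when 1 array was left out.

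Of the 60 genes, 46 were positive on the deposited values, 33 with quantile normalization, 14 with cyclic loess and 59 with centred arrays. The sign changes that follow are those of the named genes alone, not of all 60. Among the named genes, values near zero changed sign. With quantile normalization these were Rpl10l 0.16, Rpl22 -0.23, Rpl26 -0.06, Rpl27 -0.04, Rpl36a -0.08, Rpl5 -0.04, Rplp0 -0.06, Rps4x -0.08 and Rps7 -0.01. With cyclic loess they were Rpl10 -0.06, Rpl10l 0.19, Rpl22 -0.23, Rpl26 -0.14, Rpl27 -0.12, Rpl36a -0.16, Rpl3l 0.01, Rpl5 -0.13, Rpl7 -0.05, Rplp0 -0.14, Rplp1 -0.04, Rps10 -0.04, Rps4x -0.15 and Rps7 -0.09. With centred arrays they were Rpl10l 0.10, Rpl29 0.00, Rpl38 0.09, Rplp2 0.11, Rps14 0.13, Rps19 0.13, Rps28 0.14, Rps29 0.11, Rps6 0.12 and Rpsa 0.14. Array weights gave Rpl22 -0.05, averaged rows Rps6 0.00 and Rpsa 0.07, the dimmest row Rps4x -0.03 and Rpsa 0.17, and the replicate block without pair 1 Rpl10l 0.01, Rpl22 -0.03, Rplp1 -0.01 and Rps4x 0.00. Leaving out 1 array gave ranges across zero for Rpl10l (-0.14 to 0.02), Rpl22 (-0.05 to 0.09), Rpl36a (-0.05 to 0.06), Rpl5 (-0.02 to 0.13), Rps14 (-0.04 to 0.02), Rps19 (-0.08 to 0.02), Rps28 (-0.03 to 0.02), Rps29 (-0.07 to 0.01), Rps4x (-0.01 to 0.04), Rps6 (-0.07 to 0.00) and Rpsa (-0.04 to 0.03). Rela was called in 3 of 17 alternatives. The cause of the changes was not tested. Signal limits the reading at both ends: 4 genes lie at the level of unused genes, and 32 above a log2 signal of 12.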
